A study of Mus musculus with 12 samples.

Results

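The expression of 9 genes of the oligodendrocyte lineage was followed through a culture of mouse cortical neurons: the transcription factor genes Olig1, Olig2, Sox10 and Nkx2-2, the surface protein genes Pdgfra, Cspg4 and Gpr17, and the myelin protein genes Cnp and Mbp. They were taken by gene name from a table of TPM, transcript abundance scaled for gene length and library total, with 51912 genes, and all 9 had a single row in it. All 9 were among the 15623 genes with a mean of at least 1 TPM over the 12 libraries, which were the genes tested. The names are those of precursor factors and early myelin genes.

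The RNA came from neurons of the cortex of C57BL/6J embryos at E17.5, dissociated after the meninges had been taken off and grown in neurobasal medium with B27. Erinacine S, a compound of the mushroom Hericium erinaceus, was added at 1 µg/mL, and DMSO, its solvent, served as the control. The 4 groups had 3 libraries each: erinacine S 48 h, DMSO 48 h, erinacine S 16 h and DMSO 16 h, all of the same strain and age, with no allele or agent beyond these. Whether the 3 libraries of a group came from separate litters or dishes is not given in the sources used here, and p-values rest on a spread among libraries that may be technical only.

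Oligodendrocytes are the glia that wrap axons of the brain in myelin. They arise from precursor cells that divide, migrate and depend on platelet-derived growth factor (PDGF), which they sense through the receptor encoded by Pdgfra. Olig2 and Sox10 set and keep the identity of the lineage, Gpr17 marks a passing stage between precursor and oligodendrocyte, and Cnp and Mbp are made as myelin is laid down. In the cortex of a late embryo the lineage consists mainly of precursors, and myelin forms after birth.

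The upstream sequences are shown for the 5 of the 9 genes whose start site was found in RefSeq tables of build GRCm38.p6, since all 9 were higher together at 48 h in DMSO. Each sequence runs 5′ to 3′ on the strand of its gene and stops short of annotated exons. That of Nkx2-2 belongs to a start inside the annotated span of the gene. Capitals mark CANNTG, the E-box to which basic helix-loop-helix factors such as Olig1 and Olig2 can bind, and the SOX-type motifs ACAAAG and ACAATG. All were searched on both strands, and no matches overlapped.
Pdgfra, chr5:75152001-75152250, plus strand: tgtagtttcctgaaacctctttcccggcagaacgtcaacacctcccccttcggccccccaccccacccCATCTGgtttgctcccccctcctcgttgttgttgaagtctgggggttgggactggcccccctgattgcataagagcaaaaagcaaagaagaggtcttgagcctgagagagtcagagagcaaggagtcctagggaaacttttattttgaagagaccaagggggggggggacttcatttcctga
Cspg4, chr9:56864854-56865032, plus strand: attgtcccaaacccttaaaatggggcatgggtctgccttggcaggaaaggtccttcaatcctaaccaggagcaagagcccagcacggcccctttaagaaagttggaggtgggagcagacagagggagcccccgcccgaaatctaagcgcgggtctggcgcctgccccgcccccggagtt
Olig2, chr16:91225300-91225456, plus strand: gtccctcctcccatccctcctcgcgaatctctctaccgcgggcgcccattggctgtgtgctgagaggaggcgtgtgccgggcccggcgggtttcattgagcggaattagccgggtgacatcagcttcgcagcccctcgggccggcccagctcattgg
Nkx2-2, chr2:147186456-147186652, minus strand: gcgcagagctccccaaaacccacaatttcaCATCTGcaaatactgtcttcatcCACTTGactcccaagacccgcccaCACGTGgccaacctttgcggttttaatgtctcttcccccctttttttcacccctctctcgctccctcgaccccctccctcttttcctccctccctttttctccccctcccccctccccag
Cnp, chr11:100574689-100574903, plus strand: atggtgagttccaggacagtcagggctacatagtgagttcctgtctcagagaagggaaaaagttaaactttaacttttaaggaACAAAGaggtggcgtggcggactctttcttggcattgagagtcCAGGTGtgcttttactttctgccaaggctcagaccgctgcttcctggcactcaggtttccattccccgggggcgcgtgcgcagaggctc
The Pdgfra stretch of 250 bases holds 1 CANNTG match, and 66.2% of 32841 promoter windows of that length hold at least 1. The 197 bases of Nkx2-2 hold 3 CANNTG matches, where 58.6% of windows cut to that length hold any. The 215 bases of Cnp hold 1 CANNTG and 1 ACAAAG, where 61.4% and 14.5% of windows hold any. No motif was found in the 157 bases of Olig2, where 50.8% of windows cut to that length hold a CANNTG, or in the 179 bases of Cspg4, where 55.3% do. A match or its lack describes these letters only.

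The libraries were first compared as a whole. Log2 values of tested genes correlated between replicates at 0.980 to 0.995, and the lowest of these values was in erinacine S 48 h, where replicate 1 stood apart. Neuron markers such as Tubb3 and Map2 were high in every library, and the 10 neuron markers summed to 4537 to 6428 TPM over the 12 libraries, as the label primary cortical neuron has it. The 9 lineage genes summed to far less, 60.3 to 246 TPM. Read depth cannot be recovered from TPM and is unknown here. In a bulk library fewer cells of a type and less RNA per cell cannot be told apart.

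In DMSO cultures all 9 genes rose between the time points. The gene of largest fold was Gpr17, with a mean of 7.09 TPM at 48 h and 1.21 TPM at 16 h, and that of smallest fold was Cnp, with 10.0 TPM at 48 h and 6.74 TPM at 16 h. Each was called by limma at a Benjamini-Hochberg adjusted p under 0.05, where 16.1% of all tested genes were called higher. In all 9 the 3 DMSO libraries of 48 h lay above the 3 of 16 h, which held for 24.1% of tested genes. The median log2 fold change of the 9 was 1.26, against -0.03 over all tested genes; fold changes here are of TPM + 1, which understates the change of low genes.

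**Figure D1:**
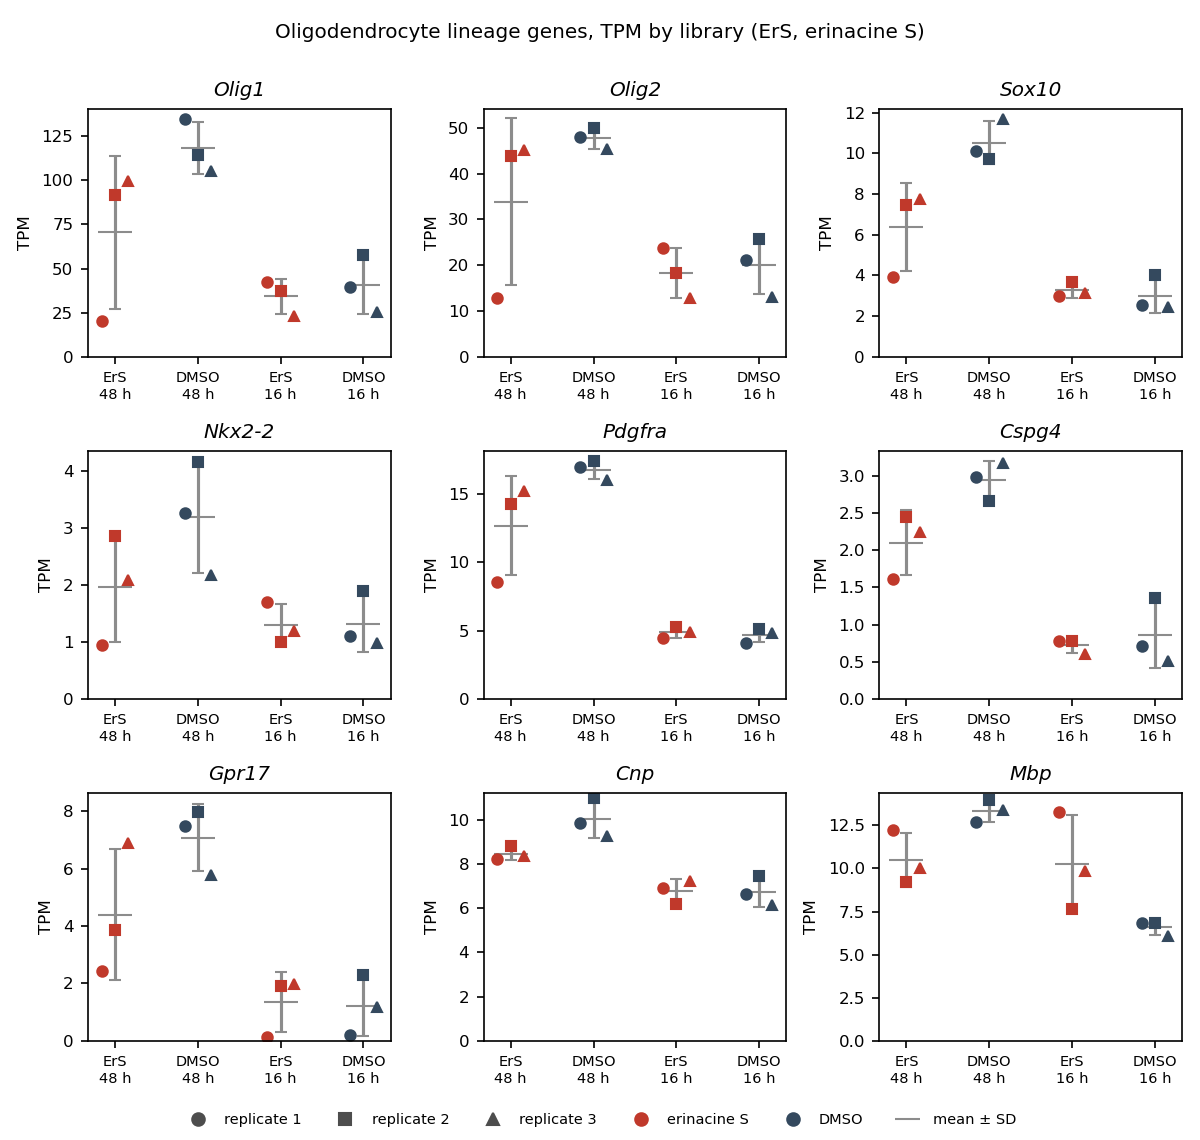
TPM of each of the 9 genes (vertical axes, from 0) in the 4 groups (horizontal axes), with a point per library, its shape giving the replicate and its colour the treatment, and grey bars for the mean and SD of 3 libraries. The DMSO 48 h points lie above the DMSO 16 h points in every panel, and erinacine S 48 h replicate 1 (circle) lies below all other 48 h points for every gene but Mbp.

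Olig1 encodes a basic helix-loop-helix factor of precursors and maturing oligodendrocytes. It lies on chromosome 16 at 91269772 to 91271933 (build GRCm38, plus strand) and has a single exon. Its level was the highest of the 9 in each group. Olig1 had 20.5, 91.5 and 99.3 TPM in erinacine S at 48 h and 135, 115 and 106 TPM in DMSO at 48 h. It had 42.4, 37.1 and 23.1 TPM in erinacine S at 16 h and 39.7, 57.9 and 25.1 TPM in DMSO at 16 h. At 48 h each erinacine S library lay below each DMSO library, replicate 1 by far the most, and at 16 h the treatments overlapped. The rise with time in DMSO was 1.58 on the log2 scale (SE 0.49, adjusted p = 0.0284, limma). That call was lost when any single library among DMSO 48 h replicates 1, 2 and 3 and DMSO 16 h replicates 1 and 3 was left out, with fold changes of 1.28 to 1.66 and adjusted p of 0.0575 to 0.101.

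Olig2 encodes the related factor that specifies the lineage. It lies 41.1 kb from Olig1 on the same strand, at 91225550 to 91228677 of chromosome 16. Olig2 had 12.8, 43.7 and 45.1 TPM in erinacine S at 48 h and 47.9, 49.99 and 45.4 TPM in DMSO at 48 h. At 16 h it had 23.7, 18.3 and 12.9 TPM in erinacine S and 21.1, 25.7 and 13.1 TPM in DMSO. Erinacine S replicates 2 and 3 at 48 h lay just under the DMSO libraries, with replicate 3 at 45.1 TPM against 45.4 TPM in the lowest DMSO library, while replicate 1 had the lowest of all 12 values. The rise in DMSO was 1.26 (SE 0.40, adjusted p = 0.0298, limma), and it too missed the threshold when any single library of the same 5 was left out, with adjusted p of 0.0553 to 0.107. The ratio of Olig1 to Olig2 TPM was 1.61 to 2.81 over all 12 libraries, lowest in erinacine S 48 h replicate 1. At 48 h the ratio was 1.608, 2.093 and 2.202 in erinacine S and 2.812, 2.291 and 2.326 in DMSO. Each erinacine S library of 48 h thus had a lower ratio than each DMSO library. At 16 h the ratios overlapped, with 1.791, 2.026 and 1.798 in erinacine S and 1.88, 2.255 and 1.911 in DMSO. The difference in ratio was not tested.

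The genes near the pair moved in different directions. Of 8 protein-coding neighbours within 250 kb, 3 were below the filter and 5 were tested. In DMSO, Synj1 rose by 0.53 with time (adjusted p = 0.0141), Paxbp1 fell by 0.57 (adjusted p = 0.000269) and Ifnar2 fell by 0.30 (adjusted p = 0.0292, all limma). Il10rb and Ifnar1 had log2 fold changes of -0.42 and -0.05 and did not pass.

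Sox10 encodes the HMG-box factor that keeps lineage identity and drives myelin genes, and lies on chromosome 15 at 79154913 to 79164490 (minus strand). Sox10 had 3.90, 7.46 and 7.77 TPM in erinacine S at 48 h and 10.1, 9.71 and 11.7 TPM in DMSO at 48 h. In the earlier cultures it had 3.00, 3.67 and 3.11 TPM with erinacine S and 2.57, 4.01 and 2.45 TPM with DMSO. All 3 erinacine S libraries of 48 h lay below the DMSO libraries, and not through replicate 1 alone. Its rise with time in DMSO was 1.54 (SE 0.21, adjusted p = 0.000368, limma).

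Nkx2-2 encodes a homeodomain factor that acts as precursors start to differentiate, on chromosome 2 at 147177546 to 147194243 (minus strand). It was among the lowest of the 9, with 0.948, 2.86 and 2.09 TPM in erinacine S at 48 h and 3.27, 4.16 and 2.19 TPM in DMSO at 48 h. At 16 h Nkx2-2 had 1.71, 1.00 and 1.20 TPM in erinacine S and 1.10, 1.89 and 0.974 TPM in DMSO. The treatments overlapped at both times. Its rise with time in DMSO was 0.85 (SE 0.26, adjusted p = 0.0269, limma). With any single library among DMSO 48 h replicates 1 and 2 and DMSO 16 h replicates 1 and 3 left out, the adjusted p was 0.0755 to 0.101.

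Pdgfra encodes the PDGF receptor of precursors and lies on chromosome 5 at 75152292 to 75198215 (plus strand). Pdgfra had 8.56, 14.3 and 15.3 TPM in erinacine S at 48 h and 17.0, 17.4 and 16.0 TPM in DMSO at 48 h. It had 4.45, 5.28 and 4.89 TPM in erinacine S at 16 h and 4.11, 5.15 and 4.80 TPM in DMSO at 16 h. Every 48 h library lay above every 16 h library under either treatment, and the 3 erinacine S libraries of 48 h lay below the 3 DMSO ones. Its rise in DMSO, 1.65 (SE 0.17, adjusted p = 5.94e-05, limma), had the smallest p of the 9.

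Cspg4 encodes a surface proteoglycan that is a standard marker of precursors and that pericytes also carry. It lies on chromosome 9 at 56865033 to 56899870 (plus strand). Cspg4 had 1.61, 2.44 and 2.25 TPM in erinacine S at 48 h and 2.99, 2.66 and 3.17 TPM in DMSO at 48 h, and again no erinacine S library reached a DMSO library. At 16 h its values were 0.777, 0.781 and 0.602 TPM in erinacine S and 0.710, 1.35 and 0.508 TPM in DMSO, which overlapped. It rose with time in DMSO by 1.11 (SE 0.17, adjusted p = 0.000768, limma).

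Gpr17 encodes a G protein-coupled receptor of committed precursors, on chromosome 18 at 31942997 to 31949636 (minus strand), inside the span of Lims2 on the other strand. Gpr17 had 2.43, 3.87 and 6.90 TPM in erinacine S at 48 h and 7.50, 7.98 and 5.78 TPM in DMSO at 48 h. It had 0.134, 1.92 and 1.99 TPM in erinacine S at 16 h and 0.190, 2.28 and 1.16 TPM in DMSO at 16 h. The spread within a group was wide, and at 16 h replicate 1 was the lowest library under either treatment. Its rise in DMSO was 1.98 (SE 0.43, adjusted p = 0.00494, limma). Lims2, with a mean of 1.76 TPM, rose by 0.75 in the same comparison (SE 0.18, adjusted p = 0.00907). The strand setting of the counting is not given in the sources used here, so reads of the pair may not be told apart.

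Cnp encodes an enzyme of the myelin sheath that precursors already make at a low level, and lies on chromosome 11 at 100574904 to 100591729 (plus strand). Cnp had 8.24, 8.81 and 8.37 TPM in erinacine S at 48 h and 9.88, 10.98 and 9.27 TPM in DMSO at 48 h. At 16 h it had 6.91, 6.21 and 7.22 TPM in erinacine S and 6.63, 7.46 and 6.13 TPM in DMSO. Its replicates lay close together, and replicate 1 of erinacine S 48 h was near replicates 2 and 3. The rise in DMSO was 0.51 (SE 0.10, adjusted p = 0.00305, limma). Its span overlaps Dnajc7 on the other strand, a chaperone gene with a mean of 266 TPM, whose own change in DMSO was -0.18 and did not pass.

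Mbp encodes myelin basic protein and lies on chromosome 18 at 82475146 to 82585637 (plus strand). In the GENCODE M21 annotation 3 of its 14 coding transcripts start within 1 kb of the 5′ end of the gene and 11 start more than 50 kb downstream. The long early-starting forms, known as Golli, are made also outside the lineage, neurons included, and a value per gene does not separate them from the classic myelin forms. Mbp had 12.2, 9.22 and 10.0 TPM in erinacine S at 48 h and 12.7, 14.0 and 13.4 TPM in DMSO at 48 h. It had 13.3, 7.66 and 9.85 TPM in erinacine S at 16 h and 6.85, 6.85 and 6.06 TPM in DMSO at 16 h. The erinacine S libraries thus lay below the DMSO libraries at 48 h and above them at 16 h. The rise in DMSO was 0.92 (SE 0.16, adjusted p = 0.00133, limma). A pseudogene inside the span on the other strand, Rpl21-ps8, fell by 0.33 (adjusted p = 0.0487).

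Under erinacine S 4 of the 9 genes rose between the time points, where 15.1% of tested genes were called higher. They were the 3 surface protein genes and Sox10: Pdgfra by 1.19 (SE 0.17, adjusted p = 0.000523), Cspg4 by 0.84 (SE 0.17, adjusted p = 0.00414), Gpr17 by 1.25 (SE 0.43, adjusted p = 0.0466) and Sox10 by 0.75 (SE 0.21, adjusted p = 0.0204, all limma). All 9 fold changes were positive, with a median of 0.75, and 5 genes had no overlap between 48 h and 16 h, which held for 21.2% of tested genes. Olig1 and Olig2 had fold changes of 0.78 and 0.70 (adjusted p = 0.252 and 0.201), and without erinacine S 48 h replicate 1 they had 1.496 and 1.28 and passed (adjusted p = 0.00476 and 0.00446). The count was 6 of 9 without that library, and 2 of 9 without erinacine S 48 h replicate 2 or 3 or without erinacine S 16 h replicate 1. With erinacine S 48 h replicate 1, 2 or 3 left out, 25.7%, 25.3% and 28% of tested genes were called in either direction. Without erinacine S 16 h replicate 1 it was 31.3%, and with all libraries 30.6%. The calls of Sox10 and Gpr17 were not firm. Sox10 missed the threshold without erinacine S 48 h replicate 2 or 3 or erinacine S 16 h replicate 1 or 3 (adjusted p = 0.0519 to 0.0742). Gpr17 missed it without erinacine S 48 h replicate 2 or 3, any DMSO 48 h library, erinacine S 16 h replicate 1 or 2 or DMSO 16 h replicate 3 (adjusted p = 0.0556 to 0.161). Cnp, with 0.29 (adjusted p = 0.0534), passed when replicate 2 or replicate 3 of DMSO 16 h was left out, at an adjusted p of 0.0476 and 0.0481. Mbp had 0.05 (SE 0.16, adjusted p = 0.843), the value nearest to 0 of the 9. The rises in DMSO and in erinacine S were not shown to differ: no gene of the 9 passed the test of that difference, given with the 16 h comparison.

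**Figure D2:**
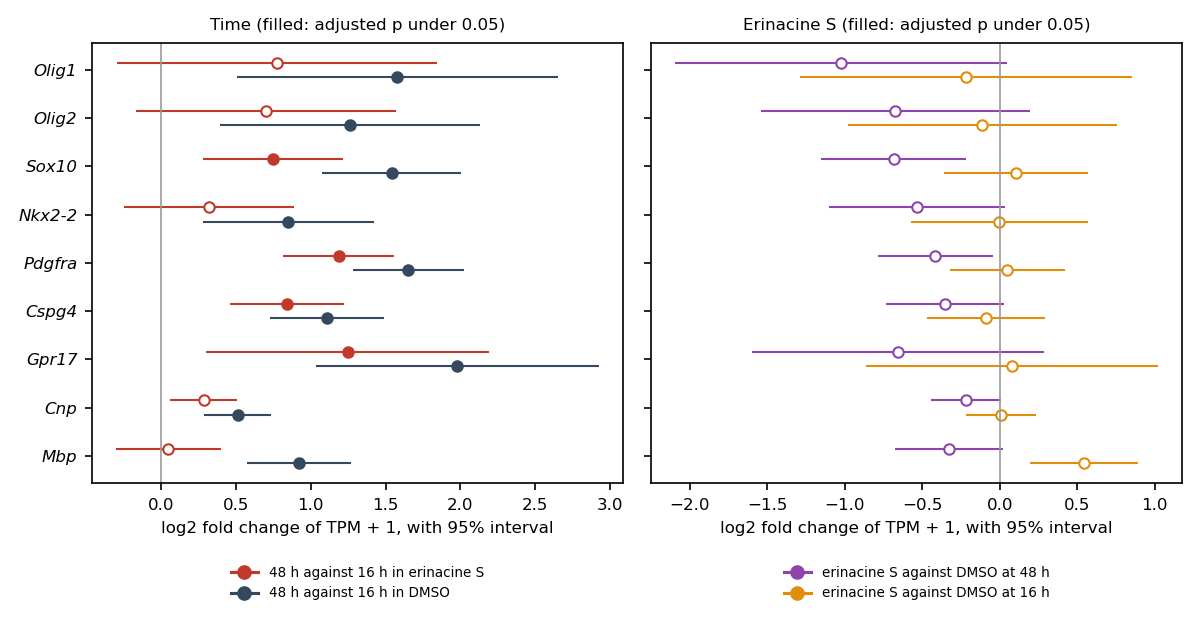
Log2 fold change of TPM + 1 with its 95% interval (horizontal axes) for each of the 9 genes (vertical axes), for 48 h against 16 h within a treatment (left) and for erinacine S against DMSO within a time (right). Filled points passed the adjusted threshold of 0.05: all 9 for time in DMSO, 4 for time in erinacine S and none for either treatment comparison.

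At 48 h all 9 genes had lower mean TPM in erinacine S than in DMSO, and none passed the test. The log2 fold changes in limma were -1.02 for Olig1, -0.69 for Sox10, -0.68 for Olig2, -0.66 for Gpr17, -0.53 for Nkx2-2, -0.42 for Pdgfra, -0.35 for Cspg4, -0.33 for Mbp and -0.22 for Cnp. Their median was -0.53, against 0.01 over all tested genes. Calls were rare in this comparison: 0.134% of tested genes, 21 in all, passed, 0.115% were called lower, and 1400 had an unadjusted p under 0.05. Among the 9 genes 2 had an unadjusted p under 0.05, Sox10 with 0.00756 and Pdgfra with 0.0314, and their adjusted p was 0.332 and 0.508. The 95% interval of the difference was -1.15 to -0.22 for Sox10 and -2.09 to 0.05 for Olig1.

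The libraries did not overlap for 7 of the 9, all but Nkx2-2 and Gpr17, with erinacine S lower each time; this held for 8.74% of tested genes. Replicate 1 of erinacine S was the lowest of the 6 libraries for 8 of the 9 genes. It held 17.35% of the DMSO mean for Olig1, 26.7% for Olig2 and 29.6% for Nkx2-2, but 82.1% for Cnp and 91.5% for Mbp. Set against the DMSO 48 h mean, the 9 genes had median log2 differences of -1.08 in replicate 1, -0.22 in replicate 2 and -0.24 in replicate 3, and all 9 were negative in each library. Without replicate 1 the 9 fold changes had a median of -0.26, all still negative, with -0.10 for Olig2, -0.30 for Olig1, -0.41 for Sox10 and -0.43 for Mbp, and again none passed, while 0.729% of tested genes did. With a weight estimated for each library, Sox10 and Mbp passed in limma, each with a fold change of -0.46 (adjusted p = 0.0248 and 0.0147), among 1599 genes called. The weights were 0.195, 5.58 and 1.1 for erinacine S replicates 1, 2 and 3, so these 2 calls rest mostly on replicate 2. Its own differences from the DMSO 48 h mean were -0.44 for Sox10 and -0.49 for Mbp.

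**Figure D3:**
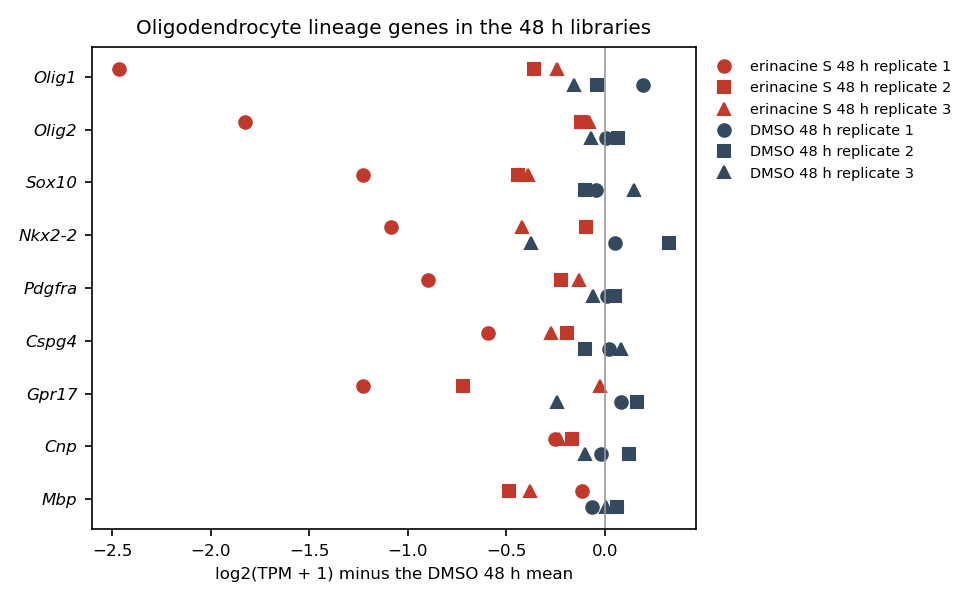
Difference of log2(TPM + 1) from the DMSO 48 h mean (horizontal axis) for each of the 9 genes (vertical axis) in the 3 erinacine S and 3 DMSO libraries of 48 h, a point per library. Erinacine S replicate 1 spans -2.46 for Olig1 to -0.12 for Mbp, and replicates 2 and 3 lie between -0.72 and -0.02.

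The make-up of the 9 genes also differed in replicate 1. Olig1 and Olig2 gave 46.7% of the summed TPM of the 9 genes there, and 71.0% to 74.2% in the other 5 libraries of 48 h. Mbp had 1.43 times the TPM of Pdgfra in replicate 1, and 0.646 to 0.656 times in erinacine S replicates 2 and 3, against 0.747 to 0.835 times in DMSO at 48 h. At 16 h the ratio was 1.45 to 2.99 in erinacine S and 1.26 to 1.67 in DMSO, so Mbp exceeded Pdgfra in all 6 libraries of 16 h.

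At 16 h no difference between treatments was seen in 8 of the 9 genes, whose libraries overlapped. No tested gene passed limma at that time (0% called), 201 genes of all tested and 1 of the 9 had an unadjusted p under 0.05, and the median log2 fold change of the 9 was 0.01. The exception was Mbp, the myelin basic protein gene, with all 3 erinacine S libraries above all 3 DMSO libraries, which held for 2.62% of tested genes. Its fold change was 0.54 (SE 0.16, 95% interval 0.19 to 0.89, unadjusted p = 0.00538), and its adjusted p in limma was 0.9999. Without erinacine S 16 h replicate 1, its highest library, the fold change was 0.36. For the other 8 the interval did not exclude changes in either direction, for example -1.29 to 0.85 for Olig1 and -0.32 to 0.42 for Pdgfra.

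The difference between the erinacine S effects at 48 h and at 16 h was tested as an interaction. Again no tested gene passed (0% called), 432 of all tested and 2 of the 9 had an unadjusted p under 0.05, and the 9 values were negative with a median of -0.56. Mbp had -0.87 (SE 0.23, unadjusted p = 0.00232) and Sox10 had -0.79 (SE 0.30, unadjusted p = 0.0224), each with an adjusted p of 1 in limma. Without erinacine S 48 h replicate 1 the median was -0.22. For Mbp it was -0.98 without erinacine S 48 h replicate 1 and -0.68 without erinacine S 16 h replicate 1. These values come from the same libraries as the comparisons within each time.

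Other genes of the lineage, grouped by role, were set beside the rise of the 9 genes with time in DMSO, in which 16.1% of all tested genes were called higher. Among 20 other precursor genes 15 were tested, 8 rose and none fell, with a median of 0.68. Lhfpl3 rose by 1.43 (adjusted p = 1.62e-05), Xylt1, a xylosyltransferase that starts proteoglycan chains, by 1.23 (adjusted p = 9.91e-05), Sstr1, a somatostatin receptor, by 1.20 (adjusted p = 0.000687) and Pcdh15, a protocadherin, by 1.00 (adjusted p = 0.00102). C1ql1, Ptprz1, Fabp7 and Cacng4 rose too, by 0.62, 0.68, 1.56 and 0.29. Several of these are not particular to precursors, and Ptprz1 and Fabp7 are also genes of radial glia and astrocytes. Under erinacine S 6 of the 15 rose, with Lhfpl3 at 1.11 and Sstr1 at 1.29, where 15.1% of all tested genes were called higher.

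The lineage's other transcription factors moved in both directions. Of 20 listed, 16 were tested and 2 rose, a share near that of all tested genes: Sox8, the relative of Sox10, rose by 1.02 (adjusted p = 0.00781) and Hes1, a Notch target, by 0.64 (adjusted p = 0.0470), while Id2, an inhibitor of basic helix-loop-helix factors, fell by 0.70 and St18 by 0.77 (adjusted p = 0.00249 and 0.00379). Myrf, the regulator of myelin genes, was below the filter. Among 15 genes of committed precursors and new oligodendrocytes 12 were tested, and Bcas1, Enpp2 and Lims2 rose by 1.78, 0.79 and 0.75 while Rnf122 and Cd82 fell by 0.92 and 0.78. Of 20 genes of mature myelin 16 were below the filter, Mag, Mog, Mobp, Opalin and Cldn11 among them. Of the 4 that remained, Ugt8a, which makes the galactolipids of myelin, and Omg rose by 0.77 and 1.05 (adjusted p = 0.00115 and 0.00709), and Car2 had -0.31 and did not pass.

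**Figure D4:**
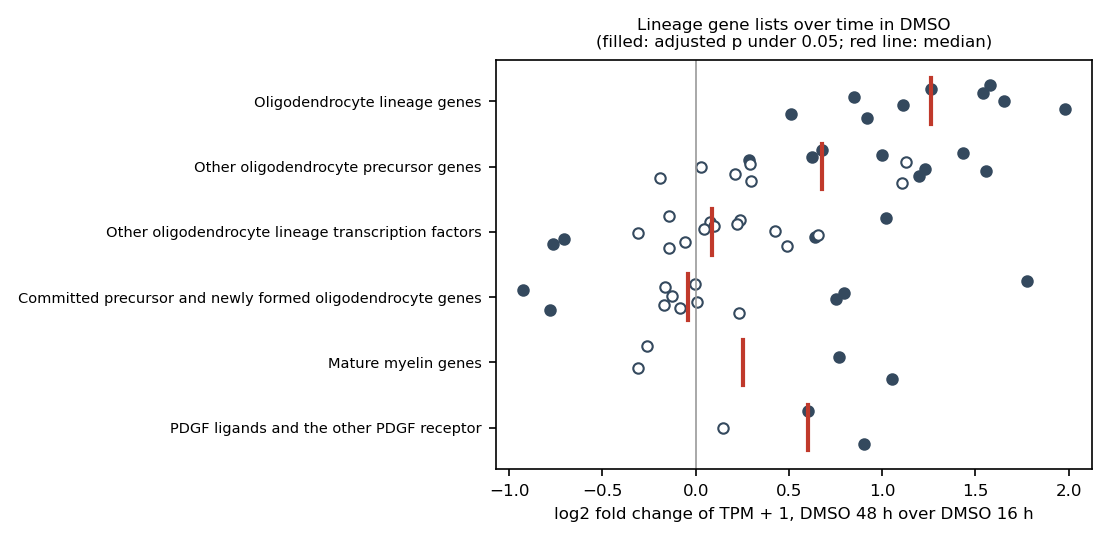
Log2 fold change of TPM + 1 for DMSO 48 h over DMSO 16 h (horizontal axis), a point per tested gene, for the 9 genes and 5 lists of related genes (vertical axis). Filled points passed the adjusted threshold of 0.05 and red lines are medians, 1.26 for the 9 genes, 0.68 for other precursor genes and 0.09 for other transcription factors.

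The ligands of the PDGF receptor and other signals were measured in the same libraries. In DMSO Pdgfa, the main ligand of Pdgfra, rose by 0.60 with time (adjusted p = 0.00254) and Pdgfc, another ligand of it, by 0.90 (adjusted p = 0.000722), while Pdgfb had 0.14 and did not pass. Pdgfa had 24.5 TPM in erinacine S and 28.8 TPM in DMSO at 48 h as means, and its fold change of -0.23 did not pass. Of 29 other signals and their receptors 23 were tested, and 6 rose and 1 fell, where 16.1% of all tested genes were called higher. The growth factor gene Igf1 rose by 0.98 (adjusted p = 0.00117), the morphogen gene Shh by 0.93 (adjusted p = 0.00179), the bone morphogenetic protein receptor gene Bmpr1b by 0.87, the hormone receptor genes Thrb and Rxrg by 0.83 and 0.92, and Lingo1 by 0.58. Fgfr2, a fibroblast growth factor receptor, fell by 0.42 (adjusted p = 0.0221).

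For erinacine S against DMSO at 48 h none of the 73 tested genes of these 6 lists passed in limma, and the smallest adjusted p in them was 0.112. It belonged to Igf1, with 1.96, 1.33 and 1.00 TPM in erinacine S and 2.92, 2.79 and 4.10 TPM in DMSO and a fold change of -0.82. Bcas1, a gene of new oligodendrocytes, had 1.91, 3.42 and 5.99 TPM in erinacine S and 8.49, 9.49 and 8.53 TPM in DMSO (fold change -1.13, adjusted p = 0.171). In both genes every erinacine S library lay below every DMSO library, which held for 8.74% of tested genes. Both were named here for their small p in this same comparison. Sox8 had -0.48, Lhfpl3 -0.36 and Pdgfc -0.46, with adjusted p of 0.325 to 0.605. The list medians were -0.09 for precursor genes, -0.11 for transcription factors, -0.06 for committed genes, -0.03 for mature myelin genes, -0.23 for PDGF genes and -0.07 for other signals, all nearer to 0 than the median of the 9 genes, -0.53. Among cell type markers the median was -1.33 for microglia, -0.53 for the 2 tested pericyte genes and -0.51 for dividing cells. A median this low was thus not particular to the 9 genes. Radial glia markers had -0.29, astrocyte markers -0.28, ganglionic eminence markers -0.06 and neuron markers 0.10. Fibroblast and Schwann cell markers, with 1 tested gene each, had -0.14 and -0.15.

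Markers of other cell types moved in the same library. They are given as summed TPM, in which the abundant genes of a list weigh most. In erinacine S 48 h replicate 1 the 9 genes summed to 31.0% of the DMSO 48 h mean, the 9 microglia markers to 5.82%, the 10 dividing cell markers to 50.8%, the 10 radial glia markers to 51.4% and the 10 astrocyte markers to 66.9%, while the 10 neuron markers stood at 104% and the 9 ganglionic eminence markers at 123%. In replicates 2 and 3 the 9 genes stood at 80.1% and 85.7%, microglia markers at 37.6% and 48.2%, dividing cell markers at 95.6% and 96.9%, radial glia markers at 93.6% and 91.9%, and astrocyte markers at 109% in each. The 20 other precursor genes stood at 60.9% in replicate 1 and at 107% in each of replicates 2 and 3. The summed microglia markers were 1.60 to 13.3 TPM in erinacine S and 22.8 to 31.5 TPM in DMSO at 48 h, and C1qc, a complement gene, was the marker that passed (fold change -1.48, adjusted p = 0.0413, limma). Mitochondrially encoded genes made up 5.12% of all TPM in erinacine S 48 h replicate 1, the lowest share of the 12 libraries, and 5.94% to 7.70% in the other 11. Genes within a list differed in erinacine S 48 h replicate 1. Atp1b2, of the astrocyte list, had 77.5 TPM there against a DMSO 48 h mean of 70.4 TPM, and Aldh1l1 had 2.78 against 17.35 TPM. Pcna, of the dividing cell list, had 94.3 against 125 TPM, and Mki67 had 5.46 against 19.0 TPM. The sums thus do not rank the lists by how far their genes fell. The part of these cell types and of the mitochondrial share in the values of the 9 genes was not tested.

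**Figure D5:**
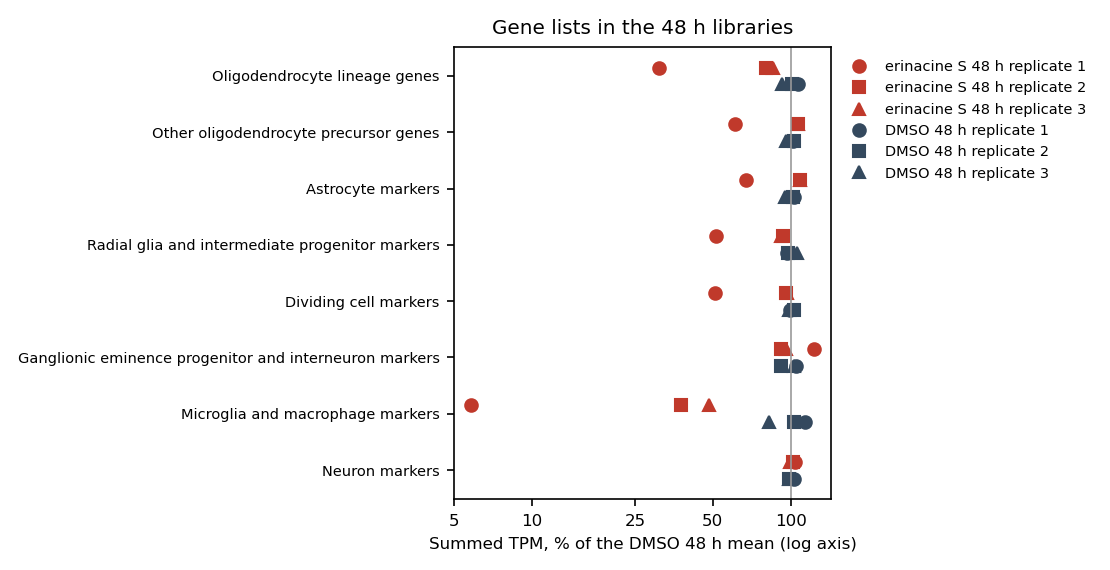
Summed TPM of each list (vertical axis) in each 48 h library as a percentage of the DMSO 48 h mean (horizontal log axis), a point per library. In erinacine S replicate 1 the 9 lineage genes stand at 31.0% and the neuron markers at 104%, and in replicates 2 and 3 the 9 genes stand at 80.1% and 85.7%. Other precursor genes stand at 60.9% in replicate 1 and at 107% in each of replicates 2 and 3.

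Cells other than the lineage that can express some of these genes were looked for by their markers. Pericytes also carry Cspg4, fibroblasts Pdgfra, and Schwann cells Sox10 and Mbp. These cell types do not cover Olig1 and Olig2, whose expression outside the lineage was not tested. The 8 pericyte markers summed to 3.36 to 18.5 TPM in erinacine S and 14.2 to 21.3 TPM in DMSO at 48 h. At 16 h they summed to 10.7 to 20.4 TPM in erinacine S and 9.67 to 24.5 TPM in DMSO. Most of these sums was Acta2, with a mean of 12.7 TPM over the 12 libraries, and 4 of the 8 were below 0.5 TPM in every library. The 7 fibroblast markers summed to 0.570 to 1.20 TPM in erinacine S and 1.71 to 2.02 TPM in DMSO at 48 h, and to 5.02 to 6.66 TPM in erinacine S and 4.34 to 6.73 TPM in DMSO at 16 h. Among them only Dcn passed the filter on low values, and it fell with time in DMSO by 1.51 (adjusted p = 7.68e-05, limma). The 6 Schwann cell markers summed to 2.27 to 2.52 TPM in erinacine S and 3.26 to 3.50 TPM in DMSO at 48 h. At 16 h they summed to 3.63 to 4.18 TPM in erinacine S and 3.69 to 4.75 TPM in DMSO. Prx had the highest mean of the 6, 2.2 TPM over the 12 libraries, and Foxd3, Cdh19 and Erbb3 were below 0.5 TPM throughout. Beside the rise of the 9 genes with time in DMSO, 16.1% of all tested genes were called higher and 32.7% were called in either direction. The neuron markers rose in 6 of 10 genes and fell in 1, and the astrocyte markers rose in 2 of 7. The radial glia markers rose in 1 and fell in 4 of 10, and no dividing cell marker passed. What part these had in the rise was not tested.

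The profile of the 9 genes over the libraries was shared unevenly. Each gene's Pearson correlation with the mean of the other 8, over 12 libraries that share 4 groups, was 0.974 for Sox10, 0.954 for Cspg4, 0.948 for Pdgfra, 0.933 for Cnp, 0.886 for Olig2, 0.882 for Nkx2-2, 0.879 for Olig1, 0.841 for Gpr17 and 0.604 for Mbp. Of all other tested genes those most like the mean profile were Glul (0.983), Tril (0.982), Nr3c1 (0.979), Adamts6 (0.976), Sema7a (0.975), Lynx1 (0.974), Snx18 (0.973) and Arhgef26 (0.966). Over the 11 libraries without erinacine S 48 h replicate 1 they were Tns3 (0.991), Lrp11 (0.989), Arhgef26 (0.988), Tril (0.985), Pde7b (0.985), Abhd17a (0.985), Hs6st1 (0.985) and Jph3 (0.984). Tril and Arhgef26 were in both sets.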

How the data were processed

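The deposited values are TPM per gene, computed by the authors, in a table that also holds identifiers, names and coordinates. The submitters' processing notes name StringTie 2.1.3, HISAT2, SAMtools, Trimmomatic 0.36, FastQC and bcl2fastq 2.20, and the build GRCm38.p5. Annotation release and strand setting: not given in the sources used here. A value of 0.0001 stands for 0 in the deposited TPM. Groups and replicate numbers were read from the sample titles.

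Tests used log2(TPM + 1) in limma 3.58.1 (R 4.3.3, eBayes with a trend) on 15623 genes of mean TPM 1 or more. A single fit held 4 group means; p-values were two-sided and adjusted after Benjamini and Hochberg over all tested genes, with a threshold of 0.05. The fit was tested on simulated data. The 9 genes, the lists and the rule for named genes were chosen with earlier results of these data known. The rule takes the 9 genes, up to 4 genes of each list with the smallest p in each of 2 comparisons and any that passed, overlapping and neighbouring genes, and the 8 genes of most similar profile; the text gives part of them, and 2 are not reported here.

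Replicate numbers were checked for pairing by correlating, across genes, how far libraries with a shared number lay from their group means. At 16 h this gave 0.480, 0.185 and 0.510 for replicates 1, 2 and 3, so libraries with a shared number deviated together there, replicate 2 only weakly. Erinacine S replicate 2 had 0.109 with DMSO replicate 3. This likeness comes from the data and not the labels, and does not establish a pairing. At 48 h the same check gave -0.02, 0.11 and -0.19, and no such likeness was seen. The alternatives were pseudocounts of 0.1 and 5, median-ratio scaling, no filter or a filter at a mean of 5 TPM, the replicate block over all libraries and within time, library weights, only the groups compared, and leaving out each of the 12 libraries.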

Additional observations from a re-analysis of the deposited data

Results flagged for a closer look

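Mbp was marked for a closer look because its erinacine S libraries lay on opposite sides of the DMSO libraries at the 2 times. All 3 erinacine S libraries lay below the DMSO libraries at 48 h (12.2, 9.22 and 10.0 TPM in erinacine S, and 12.7, 14.0 and 13.4 TPM in DMSO) and above them at 16 h (13.3, 7.66 and 9.85 TPM in erinacine S, and 6.85, 6.85 and 6.06 TPM in DMSO). Neither difference passed in limma, with an adjusted p of 0.586 at 48 h and 0.9999 at 16 h. Libraries so placed were seen in 8.74% of tested genes at 48 h and in 2.62% at 16 h. The share with both was not computed. Without erinacine S 16 h replicate 1 the 16 h fold change was 0.36, against 0.54 with it. The difference between the effects was -0.87 on the log2 scale (SE 0.23, unadjusted p = 0.00232). It did not pass the interaction test of limma over all genes, where its adjusted p was 1.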

How the results depend on the processing

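TPM carry no depth, so counting error is unknown, and 3 libraries a group limit every comparison. Over 21 alternatives and 921 values of single genes, all values for 48 h against 16 h in DMSO and for erinacine S against DMSO at 48 h kept their sign. The count of genes that rose with time in DMSO was 6 to 9 of 9 over the libraries left out and 6 of 9 with no filter on low values, where Olig1, Olig2 and Nkx2-2 missed the threshold. Under erinacine S it was 4 of 9, and 2 with no filter, 2 with only the groups compared, 3 with a pseudocount of 0.1, 5 with median-ratio scaling, 8 with library weights and 2 to 6 over the libraries left out. Shares of all tested genes moved too. Called in either direction were 21.8% to 38.3% for time in DMSO over the libraries left out, against 32.7% with all. For time in erinacine S they were 19.9% to 32.3%, against 30.6%. Shares for the other alternatives are not given here. With a mean of at least 5 TPM Cspg4, Gpr17 and Nkx2-2 were not tested, and 2 of the other 6 rose under erinacine S and 6 of 6 in DMSO. At 48 h erinacine S against DMSO had 0 of 9, and 2 with library weights; over all genes it called 9 to 1599 genes across the alternatives, against 21. The replicate block over all libraries and the block within time called 9 of 9 for time in DMSO, 4 of 9 for time in erinacine S and 0 of 9 in the other comparisons, and the block changed no call of the 9 genes. Median-ratio scaling moved no median over all genes by more than 0.1.

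A sign turned in 22 of these values, none of them past the threshold, and the cause was not tested. For erinacine S against DMSO at 16 h, leaving out a library gave -0.52 to 0.068 for Olig1, -0.37 to 0.10 for Olig2, -0.13 to 0.17 for Nkx2-2, -0.027 to 0.11 for Pdgfra, -0.22 to 0.097 for Cspg4, -0.31 to 0.54 for Gpr17 and -0.048 to 0.075 for Cnp. Nkx2-2 had 0.0043 there with a pseudocount of 0.1, and Cnp had -0.051 with library weights. The interaction of Olig2 was 0.074 with library weights and -0.86 to 0.012 over the libraries left out, with the highest value without erinacine S 48 h replicate 1. For 48 h against 16 h in erinacine S, Mbp had -0.13 to 0.24 over the libraries left out.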
